A study of Mus musculus with 6 samples.

Results

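Dennd1a is the gene named in the genotype of the transgenic animals of the series. It was taken from the deposited table by its symbol, which matched 1 of 18280 genes (Entrez gene 227801). The libraries come from whole ovaries, 3 of mice with genotype Dennd1aTG (TG) and 3 of wild-type mice (WT). All 6 mice had been injected with PMSG, a gonadotropin with FSH activity, and the ovaries were collected 44 h later. The labels give neither strain, age nor littermate status, and they do not say which promoter drives the transgene, which transcript or species it encodes, how many copies there are or whether the animals descend from 1 founder. The design text speaks of 3 animals a genotype, read here as 1 animal a library.

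DENND1A, also called connecdenn, carries a DENN domain, a fold that loads small Rab GTPases with GTP. Its substrate is Rab35, which works in recycling from endosomes to the cell surface, and the C-terminal part of the protein binds the clathrin adaptor AP-2 and clathrin itself, which places the exchange factor on clathrin-coated vesicles. Its closest relatives are Dennd1b and Dennd1c. The human gene lies at a risk locus for polycystic ovary syndrome, and a short human splice form has been studied in theca cells, the androgen-making cells of the follicle wall. The title of the series concerns transport of the FSH receptor in granulosa cells.

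On GRCm38.p6, the RefSeq assembly to which mm10 corresponds, Dennd1a occupies chr2:37798990-38287410. In GENCODE M21, on the same assembly, it is on the minus strand, and its main coding transcript Dennd1a-201 has 22 exons, 4342 bases in all and 3048 coding bases that begin at base 247. A read from a stretch that related genes share cannot be placed by sequence alone. The coding stretch around the longest runs that Dennd1a shares with each of its DENN1 relatives is therefore shown here. It covers coding bases 676 to 771 of Dennd1a, counted from 1 at the start codon, in exons 10 to 12 (chr2:37961737-38003417, introns included, minus strand). The counterparts are coding bases 670 to 765 of Dennd1b-202 (chr1:139081230-139090459, plus strand) and 736 to 831 of Dennd1c-201 (chr17:57071884-57072379, minus strand). Capitals mark the longest runs that Dennd1a shares base for base with either relative.
Dennd1a: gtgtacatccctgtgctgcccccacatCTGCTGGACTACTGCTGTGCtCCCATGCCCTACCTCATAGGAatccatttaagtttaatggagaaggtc
Dennd1b: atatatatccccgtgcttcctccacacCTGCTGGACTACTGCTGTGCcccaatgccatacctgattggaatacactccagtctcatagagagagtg
Dennd1c: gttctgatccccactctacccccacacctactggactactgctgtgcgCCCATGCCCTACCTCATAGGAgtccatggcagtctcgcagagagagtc
The longest shared run in the coding sequence was 20 bases with Dennd1b and 21 bases with Dennd1c. Over this window of 96 bases Dennd1b matched Dennd1a at 74 positions and Dennd1c at 73. A search of 141756 transcripts of other genes for any 50 bases of Dennd1a-201, on either strand, found 2 genes, both lying opposite to Dennd1a in the genome. Crb2 shared transcript bases 4230 to 4342, at the 3′ end, and the antisense gene Gm13556 shared bases 85 to 167, near the 5′ end. The deposited counts of Dennd1a were whole numbers in 6 of 6 libraries, and reads that the counting divides between genes usually leave fractions. Only 8.50% to 9.12% of all values in a library were not whole, and the Crb2 counts were also whole in 6 of 6. Whole counts therefore cannot show that no reads were shared.

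Dennd1a RNA was about 13 times as abundant in TG as in WT ovaries, and the 3 transgenic animals were nearly alike. The deposited counts were 10275, 10134 and 10078 reads in TG replicates 1 to 3 and 828, 722 and 840 reads in WT replicates 1 to 3. As CPM, which are counts scaled to a common TMM-adjusted library size, the levels were 570, 582 and 588 CPM in TG and 44.6, 39.5 and 49.3 CPM in WT. The groups lay far apart, and the lowest TG library was 11.6 times the highest WT library. The mean was 580.0 ± 8.97 CPM for the TG animals and 44.5 ± 4.91 CPM for the WT animals (SD over 3 libraries), which differ by 536 CPM. In edgeR the log2 fold change of TG over WT was 3.70 (SE 0.10), its 95% interval ran from 3.47 to 3.94, and the adjusted p was 4.02e-07. For Dennd1a alone, exchanging genotype labels among the 6 libraries gave an exact two-sided permutation p of 0.1, the smallest that 3 against 3 can give. All 6 libraries thus matched their labelled genotype, and the gene-level counts do not separate transgene transcripts from those of the endogenous gene. In a whole ovary, more cells of a type and more RNA per cell cannot be told apart.

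**Figure D1:**
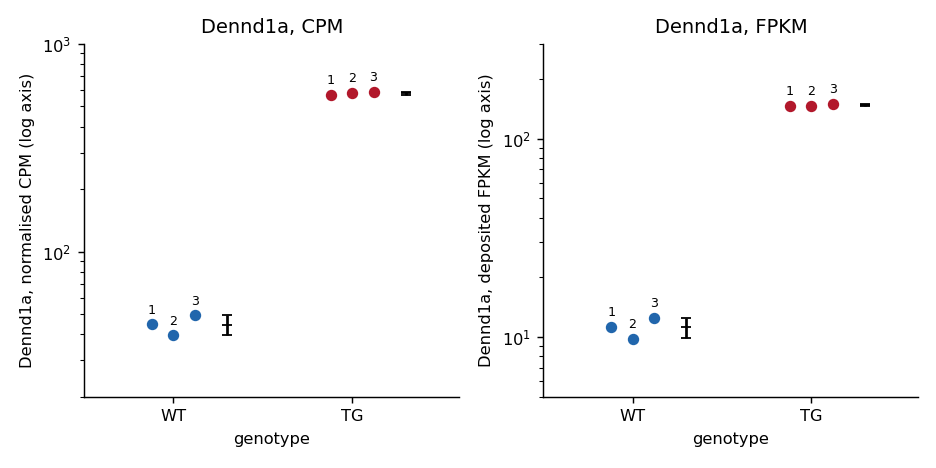
Dennd1a in each library as normalised CPM (left) and deposited FPKM (right), both on log axes, with the replicate number above each point and the mean ± SD of 3 libraries beside it. The TG libraries sit between 570 and 588 CPM and the WT libraries between 39.5 and 49.3 CPM.

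Put as a share of the library, Dennd1a took 0.0578%, 0.0576% and 0.0590% of all counts in TG replicates 1 to 3, against 0.00447%, 0.00391% and 0.00491% in WT. The gene moved from rank 4927 to 5870 by count in the WT libraries to rank 183 to 206 in the TG libraries, among 18280 genes. Per length, in deposited FPKM (reads scaled by transcript length and by sequencing depth), it measured 146.73, 145.99 and 149.50 in TG and 11.29, 9.79 and 12.45 in WT. On that scale its rank among all genes was 6336 to 7223 in WT and 577 to 621 in TG. The rise took a gene of middling abundance to a place near the most abundant ones.

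Relative spread between animals was small in TG. The coefficient of variation of Dennd1a CPM was 1.55% over the 3 TG libraries, where counting error alone gives 0.992%. Of 447 other genes within 2-fold of its TG level, 8 varied less, and their median was 6.86%. In WT it was 11.0%, where counting error alone gives 3.55%. The 5458 genes within 2-fold of that level had a median of 8.25%, and 69.2% of them varied less than Dennd1a. Dennd1a was thus steadier than most genes of its abundance in TG, and somewhat less steady than most in WT. These figures rest on 3 libraries a genotype and were not tested.

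Among all genes tested, Dennd1a had the highest log2 fold change and the smallest p. Of 14124 tested genes 149 passed an adjusted p of 0.05 in edgeR (1.05%), 5 of them higher in TG (0.0354%) and 144 lower (1.02%). Only 1 gene, Dennd1a, passed with a log2 fold change of 1 or more, while 118 genes passed with -1 or less. The next highest log2 fold change was 3.08, that of the adipocyte gene Cfd, which did not pass. By absolute log2 fold change Dennd1a ranked 6th, after genes lower in TG. The other 4 genes that rose were Hba-a1 (0.75), Hba-a2 (0.75) and Hbb-bs (0.62), which encode haemoglobin chains, and the agouti gene a (0.58). Counts of the haemoglobin genes were whole in 0 of 6 libraries, as happens where the counting divides reads with other genes. Hba-a1 and Hba-a2 therefore cannot be taken as independent risers. These haemoglobin genes are also among the 5 erythrocyte markers, whose sum was 192 to 218 CPM of the library total in TG and 118 to 134 in WT. In that order they had 76.0, 53.4 and 76.8 of 218 in TG replicate 1, and 46.6, 32.9 and 47.8 of 134 in WT replicate 1. The sum therefore mostly repeats these calls, and the share of erythrocytes in the ovaries was not tested. Leaving out TG replicate 2 or 3, or WT replicate 1 or 2, ended the call of a (adjusted p between 0.0936 and 0.143 in edgeR). Leaving out TG replicate 3 ended that of Hbb-bs (0.0511).

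**Figure D2:**
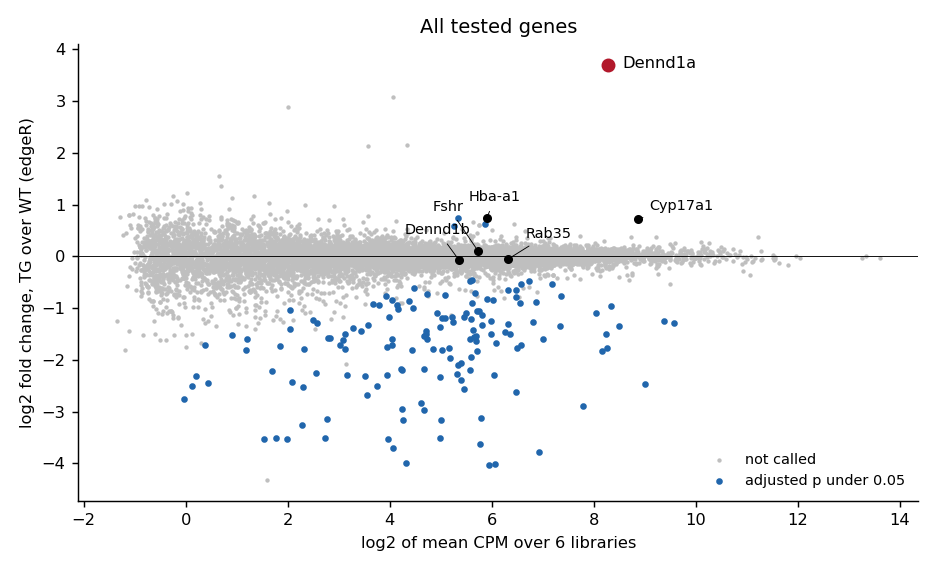
The log2 fold change of TG over WT against the log2 of the mean CPM over 6 libraries for 14124 genes, with the 149 genes that passed an adjusted p of 0.05 in blue, except the labelled points. Dennd1a, in red at 3.70, is the highest point, followed by an uncalled gene at 3.08, and most called genes lie below 0.

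Whether the reads were given to the same transcripts in both genotypes can be read from the 2 deposited columns together. A gene FPKM from RSEM divides by a length averaged over the annotated transcripts, weighted by their estimated abundance. The count over the FPKM and the library total therefore returns that length in bases. For Dennd1a it was 3942, 3945 and 3948 bases in TG replicates 1 to 3. In WT replicates 1 to 3 it was 3961, 3998 and 3944 bases. The groups overlapped, with means of 3945 ± 2.83 bases in TG and 3968 ± 27.7 bases in WT (SD, n = 3 each). The log2 difference was -0.01 (95% interval -0.02 to 0.01, adjusted p = 0.839 in limma), and the two-sided exact permutation p was 0.3. None of 12301 genes passed in this comparison (0%), 461 had an unadjusted p under 0.05, and no other tool was run.

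In 375 genes with a single GENCODE transcript, the transcript was longer than the implied length by a median of between 173 and 182 bases, depending on the library. Adding each library's median gave 4118 to 4121 bases for Dennd1a in TG and 4119 to 4176 bases in WT. The annotated Dennd1a-201 has 4342 bases. Most other annotated transcripts of the gene are much shorter, such as Dennd1a-207 with 1794 bases and Dennd1a-210 with 1036 bases, and both are marked for nonsense-mediated decay. The retained-intron forms Dennd1a-211 and Dennd1a-203 have 4082 and 6212 bases. In both genotypes the credited transcripts, averaged by estimated abundance, were therefore long and of similar length. Which annotation the authors used is not given in the sources used here, and a transgene transcript that lacks the annotated ends or is not in that annotation would not be seen as such by this ratio.

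**Figure D3:**
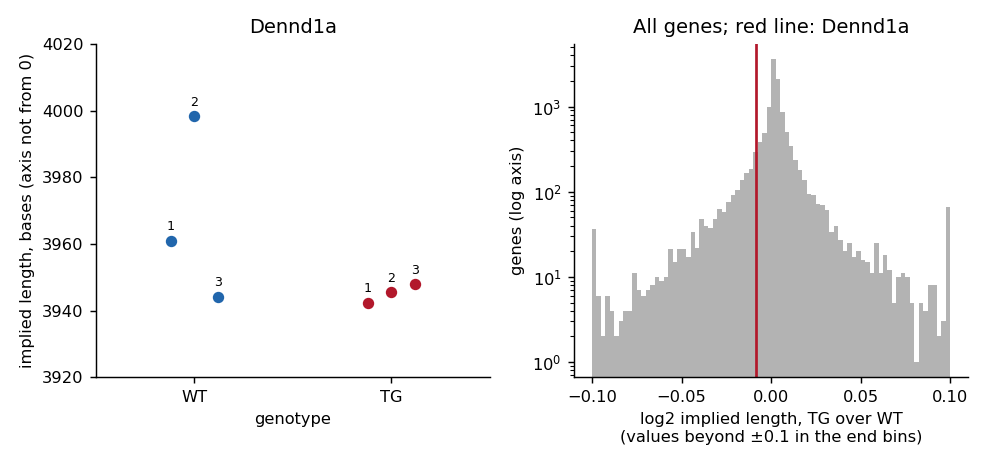
Left, the length in bases implied by the deposited count and FPKM of Dennd1a in each library, on an axis that does not start at 0. Right, the log2 ratio of the implied length in TG over WT for 12301 genes, on a log count axis, with Dennd1a as the red line at -0.01, within the bulk of genes.

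Neither of the closest relatives of Dennd1a passed the test. Dennd1b, which also acts on Rab35, had 42.3, 39.3 and 38.4 CPM in the TG libraries and 46.2, 42.4 and 36.5 CPM in the WT libraries, in replicate order. These groups overlapped, and the log2 fold change was -0.06 (95% interval -0.29 to 0.17, adjusted p = 0.9997 in edgeR). Dennd1c was near the limit of detection, at 0.444, 0.632 and 0.817 CPM in TG and 1.19, 0.985 and 1.41 CPM in WT. Its TG libraries were all below its WT libraries. The log2 fold change of -0.91 (95% interval -1.68 to -0.15) did not pass over all genes (adjusted p = 0.892 in edgeR). Over all tested genes 8.25% had groups that did not overlap. Counts of Dennd1c were whole in 0 of 6 libraries, as happens where the counting divides reads with other genes. With so little Dennd1c, Dennd1a supplied 66.0% of the summed FPKM of the 3 DENN1 genes in WT and 96.5% in TG.

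Ranked per length among the 28 DENN and DENN-like genes of the table, Dennd1a stood 11th in WT and highest in TG. Dennd5a, whose protein binds Rab6, had the highest WT mean of these genes, at 48.4 ± 3.38 FPKM in WT and 48.4 ± 3.89 FPKM in TG (SD, n = 3 each). Next in WT came Dennd2b, listed under its older symbol St5, at 23.9 ± 2.93 FPKM. The genes ranked 3 to 10, from Sbf1 to Dennd4c, fell between 15.4 and 11.8 FPKM in WT. Dennd1a at 11.2 ± 1.33 FPKM was not separated beyond its spread from Dennd4c above it (11.8 ± 1.14) or from the folliculin gene Flcn below it (9.10 ± 1.19). Dennd1b had 5.25 ± 0.641 FPKM, so Dennd1a exceeded it 2.13-fold in WT and 29.1-fold in TG. Dennd1a made up 4.27% of the summed FPKM of the 28 genes in WT and 37.5% in TG, while the other 27 summed to 251 FPKM in WT and 246 FPKM in TG.

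**Figure D4:**
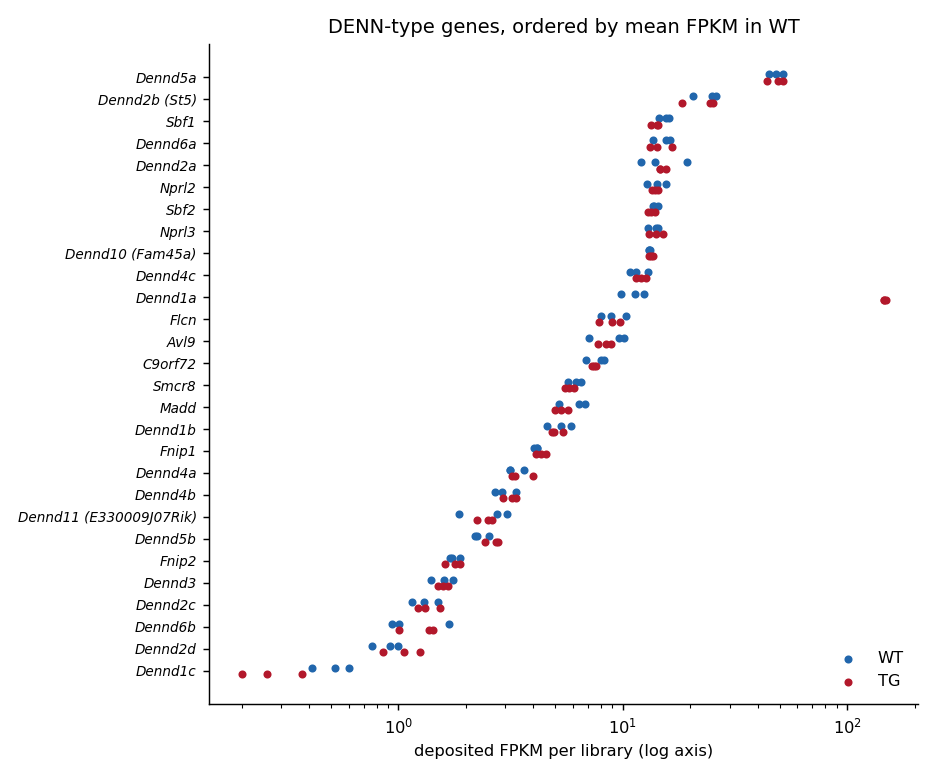
Deposited FPKM of 28 DENN and DENN-like genes on a log axis, 3 WT libraries in blue and 3 TG libraries in red for each gene, ordered by the WT mean. Dennd1a moves from 11.2 FPKM in WT to 147 FPKM in TG, and the red and blue points of most other genes lie together.

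Of the 25 other DENN and DENN-like genes tested besides the DENN1 family, none passed in edgeR (0), DESeq2 (0) or limma-voom (0). In edgeR 0 of the 25 reached an unadjusted p of 0.05. Over all tested genes 1.05% passed and 4.08% reached 0.05 before adjustment, so counts of 0 in a list this short are near that background, as are those in the lists that follow. Their log2 fold changes ran from -0.20 to 0.17 with a median of -0.02, and the median of all tested genes was 0.00. The smallest p belonged to Sbf1, a myotubularin-related protein with a DENN module, at -0.15 (SE 0.08). Dennd5b, related to Dennd5a, had 0.17 (SE 0.11). Madd, an exchange factor for Rab3 and Rab27, had -0.20 (SE 0.12). Smcr8, a partner of C9orf72, had -0.09 (SE 0.09). TG libraries were all below WT libraries for 2 of the 25 genes, Sbf1 and Sbf2, again beside 8.25% of all genes without overlap.

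Rab35, the GTPase that DENND1A activates, did not pass the test. Its levels were 77.3, 77.2 and 80.7 CPM in the TG animals against 76.5, 84.8 and 82.6 CPM in the WT animals, and the groups overlapped. Its log2 fold change was -0.05 (95% interval -0.23 to 0.12, adjusted p = 0.9997 in edgeR). In FPKM it exceeded Dennd1a 3.64-fold in WT, and in TG Dennd1a exceeded it 3.74-fold. In deposited FPKM the proportion of Dennd1a to Rab35 was therefore turned round in the whole transgenic ovary. These FPKM rest on annotated lengths, and the labels do not give the transcript or species of the transgene. Whether both RNAs are in the same cells cannot be seen.

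Genes of the Rab35 cycle were examined as a list of 21 tested genes. The list holds Rab35 itself, its effectors, the GTPase-activating proteins that switch it off and the factors that escort Rabs. It also holds the GTPase genes Rab1a and Rab1b. In edgeR 0 passed (1.05% of all genes did) and 1 had an unadjusted p under 0.05, and the log2 fold changes had a median of -0.03 and a range from -0.34 to 0.14. That 1 gene was Ankfy1, an early endosome protein known chiefly as a Rab5 effector. Ankfy1 stood at 111, 105 and 107 CPM in the TG animals against 144, 130 and 135 CPM in the WT animals. All TG libraries were lower, as they also were for Tbc1d13 and Ehd1, which makes 3 of the 21 genes (8.25% of all genes had groups apart). The log2 fold change was -0.34 (SE 0.08), which did not pass in edgeR (adjusted p = 0.116) and passed in DESeq2 (adjusted p = 0.0180). Over 18 alternatives the adjusted p of Ankfy1 ranged from 0.0180 to 0.537. Tbc1d13, a GTPase-activating protein for Rab35, had -0.18 (SE 0.08) and Ehd1, which acts on recycling tubules, had -0.13 (SE 0.08). Chm, a Rab escort protein, had 0.14 (SE 0.09).

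Genes of the coat to which the C-terminal part of DENND1A binds come next. None of 33 genes for AP-2 subunits, clathrin chains and their partners passed with edgeR (0, beside 1.05% of all genes), DESeq2 (0) or limma-voom (0), and before adjustment 0 of them reached 0.05 in edgeR (4.08% of all genes did). The log2 fold changes had a median of 0.02 and a range of -0.24 to 0.40. The clathrin light chain gene Cltb had -0.24 (SE 0.11), the clathrin assembly gene Picalm 0.14 (SE 0.08), the endophilin gene Sh3gl2 0.40 (SE 0.23) and the epsin gene Epn1 -0.15 (SE 0.10). TG libraries were all above WT libraries for Picalm, the 1 gene of the 33 without overlap (3.21% of all genes lay all above).

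AKT kinases are known to phosphorylate DENND1A, and 14-3-3 proteins to bind the phosphorylated form. Of 14 genes for these proteins and the insulin and IGF1 receptors, 0 passed with any of the 3 tools. Before adjustment 1 of the 14 reached 0.05 in edgeR (4.08% of all genes). The receptor gene Igf1r had 0.19 (SE 0.09), the mTORC2 subunit gene Rictor 0.10 (SE 0.09) and Akt1 -0.08 (SE 0.08). The list had a median of -0.01.

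Fshr, the receptor named in the series title, had 61.5, 55.4 and 48.2 CPM in the TG animals and 49.4, 53.3 and 49.7 CPM in the WT animals. The groups overlapped, and the log2 fold change was 0.12 (95% interval -0.11 to 0.34, adjusted p = 0.9997 in edgeR). Of 16 genes for the receptor, its arrestins, kinases and adaptors and the Rabs of early and recycling endosomes, 0 passed with any of these tools and 0 reached 0.05 before adjustment in edgeR, beside 1.05% and 4.08% of all genes. For 1 of the 16, the recycling endosome gene Rab11b, TG libraries were all below WT (8.25% of all genes were apart, in either direction). The log2 fold changes of the 16 ran from -0.10 to 0.12 with a median of -0.05. The early endosome GTPase genes Rab5a and Rab5c had 0.10 (SE 0.09) and -0.08 (SE 0.08), and the receptor kinase gene Grk2 had -0.08 (SE 0.08). RNA levels say nothing of where the receptor protein is in the cell.

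**Figure D5:**
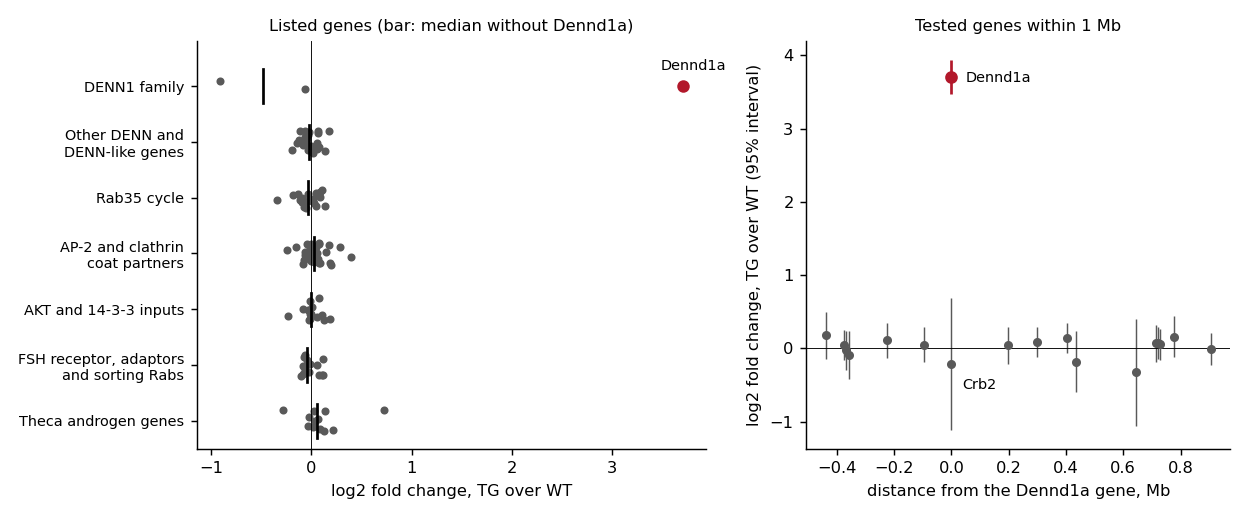
Left, log2 fold changes of TG over WT for the tested genes of 7 lists, 1 point a gene, with the list median without Dennd1a as a bar. Right, the log2 fold change with its 95% interval for tested genes within 1 Mb of Dennd1a, by distance from it in Mb. Dennd1a lies at 3.70 in both, and neighbouring genes lie between -0.33 and 0.18.

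Androgen-making genes of theca cells were examined because human DENND1A has been studied there. Of 12 tested genes 0 passed in edgeR, and 1, Cyp17a1, reached 0.05 before adjustment. Cyp17a1, the enzyme that turns progestins into androgens, had 583, 707 and 466 CPM in the TG animals and 361, 294 and 408 CPM in the WT animals. All TG libraries were higher (3.21% of all genes were), with a log2 fold change of 0.73 (SE 0.16) and an adjusted p of 0.115 in edgeR. The gene passed in DESeq2 (adjusted p = 3.09e-04) and, in edgeR, without TG replicate 3 (adjusted p = 0.0382), and its adjusted p ranged up to 0.343 over the alternatives. The steroidogenic regulator Nr5a1 had 0.14 (SE 0.09), the electron donor gene Fdx1 0.13 (SE 0.11) and the cholesterol transport gene Star -0.29 (SE 0.33), and the list had a median of 0.05.

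Genes around the endogenous locus were examined by distance. In RefSeq coordinates 17 tested genes lay within 1 Mb of Dennd1a, of which 0 passed with any of the 3 tools and 0 reached 0.05 before adjustment in edgeR, again near the background of 1.05% and 4.08%. TG libraries were all above WT libraries for 1 of the 17, Scai (3.21% of all genes). The neighbours had a median log2 fold change of 0.05. Crb2, whose 3′ end overlaps that of Dennd1a, had 2.72, 1.55 and 2.92 CPM in TG and 3.40, 3.67 and 1.23 CPM in WT (log2 fold change -0.21, 95% interval -1.12 to 0.69). The groups overlapped, and whether reads from the overlapping end enter the Crb2 count was not tested. The nearest tested genes on either side, Strbp at 95.1 kb and Nek6 at 196 kb, had 0.05 (SE 0.11) and 0.04 (SE 0.11). Nr5a1, described above, is also one of these neighbours, at 405 kb. Within 5 Mb 0 of 52 tested genes passed. The wider window raised the genes at lower coordinates from 6 to 41. It added none at higher coordinates, where 10 tested genes lay in both windows.

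To find genes whose pattern resembles that of Dennd1a, log2 CPM over the 6 libraries was scaled to a mean of 0 and an SD of 1 for Dennd1a and 12703 other genes that averaged 2 CPM or more, and patterns were compared by their root mean square difference, where 0 is identical and 2 is the mirror image. Since the genotypes form 2 tight clusters for Dennd1a, the measure finds genes that separate them cleanly, whatever the size of the step, and it is given as a description. The closest were Hba-a1 (0.179), Fmn2 (0.186), Abcd2 (0.187), Pcdhga9 (0.206) and Hba-a2 (0.229). Apart from the haemoglobin genes these steps were small and did not pass, with log2 fold changes of 0.31 for Fmn2, 0.34 for Abcd2 and 0.25 for Pcdhga9. Counts of Hba-a1, Hba-a2 and Pcdhga9 were whole in 0 of 6 libraries, so Hba-a1 and Hba-a2 cannot be taken as separate examples. Abcd2, a peroxisomal fatty acid transporter, measured 14.7, 14.4 and 15.2 CPM in TG and 11.3, 11.8 and 11.9 CPM in WT. The nearest to a mirror image were Ifi27 (1.999), H2-T22 (1.997), Tgtp1 (1.996), Oas1a (1.996) and Trim25 (1.995), all of them genes that interferon induces. Ifi27 was at 226, 235 and 232 CPM in the WT animals and fell to 87.2, 93.2 and 93.1 CPM in the TG animals. Its log2 fold change was -1.34 (SE 0.07), with an edgeR adjusted p of 2.95e-05.

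Library totals ran from 17075484 to 18516171 counts, so 1 read in 1694 to 1736 was from Dennd1a in TG and 1 in 20365 to 25547 in WT. Markers of granulosa cells, theca cells and oocytes were present in every library, as a whole ovary should show. Summed CPM of the library total for 6 leukocyte markers was 148 to 166 in TG and 188 to 283 in WT. It moved with the genotype, and its part in the results was not tested. The erythrocyte sum also did, but that sum mostly repeats the called haemoglobin genes. No list had a marker at 0 in all libraries. Sums of 6 adipocyte markers were 175 in TG replicate 2 and 34.8 or less elsewhere, and of 5 oviduct markers 53.6 in WT replicate 3 and 16.4 or less elsewhere. Without those 2 libraries the log2 fold change of Dennd1a was 3.78 (adjusted p = 4.95e-05 in edgeR).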

How the data were processed

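Whole ovaries gave total RNA for 6 libraries, read on the BGISEQ-500 platform per the labels. Bowtie2, the quantifier RSEM 1.3.1, DESeq2 1.4.5 and build mm10 are listed, without roles, per the submitters' processing notes. The authors deposited an estimated count per gene and library, and between 8.50% and 9.12% of the values in a library are not whole. The deposited expression columns carry no unit and were taken as FPKM from their values. Strandedness, read length and annotation are not given in the sources used here. Genes were matched by Entrez number to the RefSeq table of GRCm38.p6 (18165 of 18280 matched), and transcripts came from GENCODE M21.

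After rounding, the estimated counts went into edgeR 4.0.16 under R 4.3.3 (TMM, filterByExpr at 10 counts and 15 in total, quasi-likelihood test, Benjamini-Hochberg adjustment over 14124 genes, threshold 0.05), with genotype as the only factor. TMM factors ran from 0.990 to 1.015. A standard error is the log2 fold change over the square root of F. Implied lengths were compared with limma 3.58.1 on the log2 scale over genes with a mean of at least 50 counts. The edgeR and limma steps were tested on simulated data. Over 5 simulated draws edgeR recovered 49.4% of genes set to a log2 fold change of 0.58, 83.1% at 1 and 76.5% at -1. At 3.70 it recovered 100%, and 6.01% of all its calls were false. Smaller changes can thus be missed. Alternatives were other scalings and filters, a replicate block, libraries left out, DESeq2 1.42.0, limma-voom and limma-trend on log2(FPKM + 1). Same-numbered libraries were not treated as pairs. The gene and the lists were chosen with earlier results of these data known. Genes were named by rule: the DENN1 genes, Rab35 and Fshr, up to 4 members with the smallest p per list, overlapping and nearest neighbours, called risers, and the 5 genes most and least like Dennd1a in pattern. Cfd, Dennd5a, Dennd2b, Sbf2, Dennd4c, Flcn, Rab11b and Scai were named by level or after their values were seen. A gene that this rule names is not reported here.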

Additional observations from a re-analysis of the deposited data

How the results depend on the processing

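The log2 fold change of Dennd1a stayed between 3.61 and 3.79 over 18 alternatives and passed in each, with 3.63 to 3.79 when single libraries were left out. With the replicate number as a block it was 3.71, and 159 genes passed in place of 149. Deviations of same-numbered TG and WT libraries correlated at 0.228, 0.0797 and 0.0935. The values for numbers 2 and 3 were small, but every library correlated best with its own number. The correlations therefore do not settle whether the numbers pair the samples. The count of all genes passed ranged from 119 to 204, the highest in DESeq2, which called 11 higher in TG in place of 5. The list of the Rab35 cycle had 1 gene called in DESeq2 (Ankfy1). The theca list had 1 called in DESeq2 and between 0 and 1 when single libraries were left out (Cyp17a1, without TG replicate 3). The other lists had the same counts in every alternative run, and the implied length of Dennd1a did not pass in any of 10. Signs turned for genes with small changes. Over the fits that leave out libraries, Dennd1b ranged from -0.15 to 0.015 (above 0 without WT replicate 1), Star from -0.58 to 0.24 (above 0 without WT replicate 2) and Crb2 from -0.56 to 0.041 (above 0 without TG replicate 2 or WT replicate 2). Nek6 ranged from -0.060 to 0.13 (below 0 without TG replicate 2 or WT replicate 1). Strbp reached 0.12, and was -0.03 without WT replicate 3 and -0.02 without TG replicate 2. Rab5a reached 0.15. Without TG replicate 2 and WT replicate 3 together, Rab5a had -0.012 and Strbp -0.10. The cause was not tested. With 3 libraries a genotype, differences within the intervals given cannot be seen, and low counts limit Dennd1c and Crb2 most.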
